A study of Mus musculus with 16 samples.

Results

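The transcripts described here are those of 10 genes that mark the resting, homeostatic state of astrocytes, the glial cells that take up transmitter, buffer ions and water and feed neurons. They were selected from a table of 55385 genes by name, as astrocyte markers of glutamate, potassium, water or metabolic function, by a rule that uses no measured value. They are Slc1a2, Slc1a3, Glul, Kcnj10, Slc4a4, Aqp4, Aldoc, Acsbg1, Aldh1l1 and S100b, and 10 of the 10 passed the filter on low counts that left 17019 genes for testing. Polyadenylated RNA of the brain cortex was sequenced from 16 mice at an age of 5 months, with 4 libraries a genotype. Wild-type C57BL/6J mice, Dp16 mice (an extra copy of the part of mouse chromosome 16 that matches much of human chromosome 21) and 5xFAD mice (human amyloid precursor and presenilin transgenes that carry familial Alzheimer mutations and are driven by the neuronal Thy1 promoter) were each 2 males and 2 females. The mice with both alterations, 5xFAD-Dp16, were 4 males. None of the 10 genes lies on chromosome 16, so each was present in its usual copy number in all 4 genotypes. S100b is an ortholog of a gene of human chromosome 21, but in the mouse it lies on chromosome 10, outside the duplicated segment.

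Astrocytes clear glutamate from the synapse through the transporters EAAT1 (Slc1a3) and EAAT2 (Slc1a2), and glutamine synthetase (Glul) turns it into glutamine, which returns to neurons. The inward rectifier channel Kir4.1 (Kcnj10) carries potassium into the same cells, the water channel aquaporin-4 (Aqp4) sits on their endfeet around vessels, and the cotransporter NBCe1 (Slc4a4) moves sodium with bicarbonate and so sets pH. Aldolase C (Aldoc) is the brain form of a glycolytic enzyme, Acsbg1 activates long-chain fatty acids, Aldh1l1 oxidises formyltetrahydrofolate in one-carbon metabolism, and S100b is a calcium-binding protein that astrocytes also release. In amyloid models, astrocytes near plaques take on a reactive state marked by the filament protein Gfap.

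The 3 genes whose levels moved together most closely from library to library were Slc1a2, Slc4a4 and Kcnj10, and the 250 bases before their start sites are shown to let their promoters be compared. RefSeq promoters (GRCm38.p6) were used for 9 of the 10 genes. None was taken for Aqp4, so whether it has a matching promoter is not reported here. Capitals mark a GC box (GGGCGG) or a CCAAT motif, searched on both strands. The Slc1a2 sequence is chr2:102706188-102706437, plus strand, a start inside the Gencode span of the gene. The Slc4a4 sequence is chr5:88887010-88887259, plus strand, the first of 2 RefSeq starts. The Kcnj10 sequence is chr1:172340960-172341209, plus strand.
Slc1a2: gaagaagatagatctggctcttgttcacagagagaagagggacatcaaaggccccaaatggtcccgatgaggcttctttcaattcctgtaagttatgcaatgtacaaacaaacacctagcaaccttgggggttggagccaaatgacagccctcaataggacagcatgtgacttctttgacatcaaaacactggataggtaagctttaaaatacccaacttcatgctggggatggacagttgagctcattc
Slc4a4: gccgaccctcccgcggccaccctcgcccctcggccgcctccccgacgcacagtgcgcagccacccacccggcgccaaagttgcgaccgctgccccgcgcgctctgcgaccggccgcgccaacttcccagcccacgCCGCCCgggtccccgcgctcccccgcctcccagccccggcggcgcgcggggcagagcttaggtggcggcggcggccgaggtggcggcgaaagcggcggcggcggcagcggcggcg
Kcnj10: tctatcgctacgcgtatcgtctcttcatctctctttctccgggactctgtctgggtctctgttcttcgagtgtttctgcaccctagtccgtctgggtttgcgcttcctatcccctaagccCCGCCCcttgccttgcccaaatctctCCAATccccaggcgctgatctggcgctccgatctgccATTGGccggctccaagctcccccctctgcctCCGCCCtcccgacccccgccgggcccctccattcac
The 3 sequences shown shared few of these motifs. The Gencode span of Slc1a2 starts at 102658659, before the sequence shown, so the bases ahead of that start were not searched. The Slc1a2 sequence, with a GC content of 44.8%, held 0 GC boxes and 0 CCAAT motifs, the Slc4a4 sequence (82.0% GC) held 1 GC box, and the Kcnj10 sequence (62.0% GC) held 2 GC boxes and 2 CCAAT motifs. Over 32851 RefSeq promoters cut to the same 250 bases, 32.7% held a GC box and 33.8% a CCAAT motif. Of the 11 promoters of the 9 genes, 6 held a GC box and 7 a CCAAT motif, that of Slc4a4 being at its second start, which is not shown. Factors of the nuclear factor I family act in astrocyte development. Their longer motif (TTGGC and GCCAA with 5 bases between them) was in none of these 11 promoters and in 0.0365% of the 32851.

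Levels per length of transcript, as the RPKM values the authors deposited (reads scaled to library size and gene length), put the carbohydrate and glutamine enzymes first. Aldoc and Glul had mean RPKM over the 16 libraries of 738 and 708, and their order held in only 10 of 16 libraries. Slc1a3 (268) and S100b (227) followed, in that order in 14 of 16 libraries. Slc1a2 stood at 85.2 RPKM and Acsbg1 at 59.4, ordered so in 13 of 16. Aqp4 (20.2), Kcnj10 (16.4), Aldh1l1 (10.8) and Slc4a4 (5.03) were the lowest, and each neighbouring pair kept its order in at least 14 of 16 libraries. The steps from Glul to Slc1a3, S100b to Slc1a2, Acsbg1 to Aqp4 and Aldh1l1 to Slc4a4 held in 16 of 16.

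None of the 10 genes differed between genotypes past the threshold in any of the 6 comparisons fitted over the 16 libraries (edgeR's quasi-likelihood test with a term for sex, adjusted p under 0.05 over all genes). In Dp16 against wild-type, 0 of 10 were called against 0.0176% of all genes, and 9 of 10 were higher, with a median log2 difference of 0.13 beside 0.002 over all genes. That median was -0.0094 without Dp16 3 and 0.25 without Dp16 4. In 5xFAD against wild-type 0 of 10 were called against 0.176% of all genes, with a median of -0.07 beside 0.019, and the median was 0.09 without 5xFAD 3 and 0.034 without wild-type 4. In 5xFAD-Dp16 against wild-type 0 of 10 were called against 0.047% of all genes. For 5xFAD-Dp16 against Dp16 the count was again 0 of 10, against 0.0176% of all genes. Against 5xFAD, 5xFAD-Dp16 had 0 of 10 genes called and 0% of all genes. The interaction, which is the effect of Dp16 in 5xFAD mice minus its effect in mice without the transgenes, also called 0 of 10 and 0% of all genes. The libraries of the groups compared overlapped for all 10 genes in the first 3 of these comparisons, where 2.33%, 5.48% and 3.98% of all genes had groups that did not overlap. In bulk tissue, fewer astrocytes and less RNA per astrocyte cannot be told apart. The comparisons share groups of libraries, so they are not independent of each other. The p-values measure the spread between the animals of a genotype.

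At an unadjusted p under 0.05 by edgeR, the background share of genes was 3.88% in Dp16 against wild-type, 10.7% in 5xFAD against wild-type, 10.4% in 5xFAD-Dp16 against wild-type and 5.29% in 5xFAD-Dp16 against Dp16, and the 10 genes gave 0, 2, 0 and 0. For 5xFAD-Dp16 against 5xFAD, 23.8% of genes (4049) and 2 of the 10 passed that looser limit, and for the interaction 9.35% (1591) and 1 of 10. DESeq2 called 781 genes in 5xFAD-Dp16 against 5xFAD, or 4.59%, among them Aldoc. In the interaction it called 21 genes, or 0.123%, and 0 of the 10. In the other 4 comparisons DESeq2 called 0 of the 10. Its shares of all genes there, in the order given above, were 0.206%, 1.37%, 0.623% and 0.147%. The 95% intervals of the pairwise differences were narrow for S100b, Aldoc, Slc1a3 and Glul and wide for Slc1a2 and Kcnj10, with half-widths from 0.26 to 0.95 on the log2 scale.

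**Figure D1:**
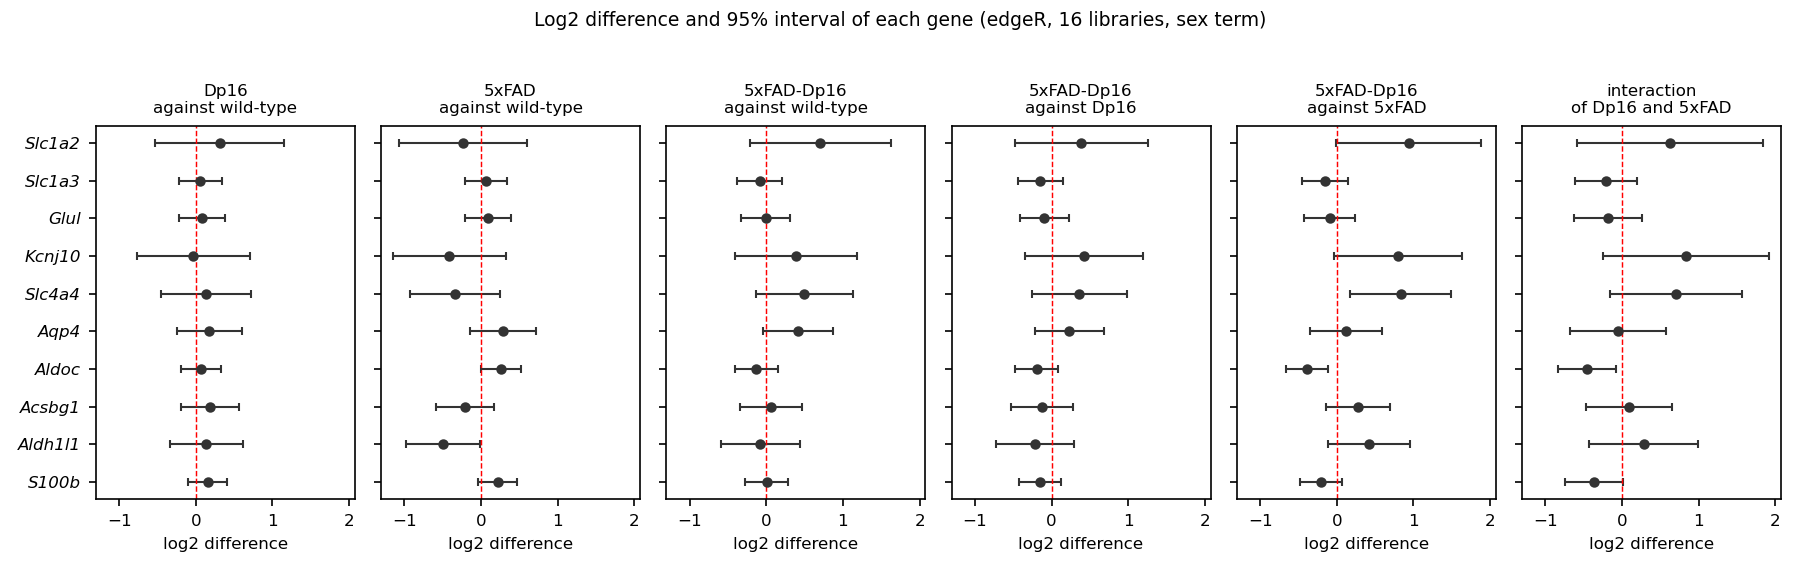
Log2 difference (x axis) of each of the 10 genes (y axis) in the 6 comparisons, with points for the estimate and bars for the 95% interval from the 16-library edgeR fit with a sex term. Intervals are widest for Slc1a2, Kcnj10 and Slc4a4, and in no comparison did a gene pass after adjustment over all genes.

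Of the 2 glutamate transporters, Slc1a2 varied from 1.89- to 3.54-fold within a genotype and Slc1a3 from 1.19- to 1.49-fold. Slc1a2 (ENSMUSG00000005089.15, chromosome 2, 102658659 to 102790784, 11 exons) stood at 647, 486, 809 and 1718 CPM (counts scaled to library size with TMM factors) in the 4 wild-type libraries and at 1112, 875, 1702 and 640.1 in Dp16. It stood at 1087, 1038, 307 and 734 CPM in 5xFAD and at 1759, 1120.4, 1348 and 932 in 5xFAD-Dp16. Wild-type 4, Dp16 3 and 5xFAD-Dp16 1 were high, 5xFAD 3 was the lowest of all, and the 4 genotypes overlapped. Means were 915 ± 552 CPM in wild-type, 1082 ± 456 in Dp16, 791 ± 359 in 5xFAD and 1289.9 ± 356 in 5xFAD-Dp16 (SD, n = 4). The log2 difference of 5xFAD-Dp16 from 5xFAD was 0.94 (SE 0.45, 95% interval -0.01 to 1.88, edgeR adjusted p = 0.213). That from wild-type was 0.70 (SE 0.44, adjusted p = 0.530). The sex term assumes the same sex effect in all genotypes, and 5xFAD-Dp16 had no females. Without that term the difference from 5xFAD was also 0.70.

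Slc1a3 (ENSMUSG00000005360.14, chromosome 15, 8634124 to 8710764, 10 exons) stood at 1244, 1167, 1245 and 993 CPM in wild-type and at 1236, 1197, 1446 and 971 in Dp16. The 5xFAD libraries held 1231, 1312, 1015 and 1277 CPM and the 5xFAD-Dp16 libraries 1145, 1207, 1164 and 1010.2. All 4 groups shared one range, and the largest pairwise difference in size, 5xFAD-Dp16 against 5xFAD, was -0.15 (95% interval -0.45 to 0.15, edgeR adjusted p = 0.524). Per length of transcript, Slc1a3 was above Slc1a2 in 16 of 16 libraries, by 1.59 times in wild-type 4 and by 9.08 times in 5xFAD 3.

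Glul (ENSMUSG00000026473.16, chromosome 1, 153899944 to 153909723), the next step of the cycle, was as steady as Slc1a3. Its values were 2567, 2015, 2339 and 2286 CPM in wild-type mice, 2818, 2189.5, 2796 and 1969 in Dp16, 2559, 2684, 1965 and 2559 in 5xFAD, and 2535, 2111, 2343 and 2198 in 5xFAD-Dp16. 5xFAD 3 lay apart from the other 5xFAD libraries on the low side, and the groups overlapped. Means ran from 2297 ± 185 CPM in 5xFAD-Dp16 to 2443 ± 429.8 in Dp16, and the log2 difference of 5xFAD from wild-type was 0.09 (95% interval -0.21 to 0.39, edgeR adjusted p = 0.843).

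The channel and cotransporter genes Kcnj10 and Slc4a4 followed Slc1a2. Kcnj10 (ENSMUSG00000044708.5, chromosome 1, 172341210 to 172374085, 2 exons) stood at 66.0, 56.4, 84.0 and 166 CPM in wild-type mice, 109, 61.5, 118 and 58.1 in Dp16, 113, 95.2, 29.4 and 55.1 in 5xFAD, and 126, 75.3, 105 and 83.7 in 5xFAD-Dp16. The highest library was wild-type 4 and the lowest 5xFAD 3, 5.63 times apart, and all groups overlapped. In the fit with a sex term 5xFAD-Dp16 exceeded 5xFAD by 0.80 on the log2 scale (SE 0.39, 95% interval -0.03 to 1.63, edgeR adjusted p = 0.224). Without that term the difference was 0.41. Means were 97.5 ± 22.9 CPM in 5xFAD-Dp16 and 73.3 ± 38.1 in 5xFAD.

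Slc4a4 (ENSMUSG00000060961.16, chromosome 5, 88886818 to 89239653, 26 exons) stood at 43.9, 33.3, 48.3 and 80.6 CPM in wild-type mice, 61.7, 47.9, 70.8 and 41.3 in Dp16, 53.1, 55.2, 21.2 and 37.2 in 5xFAD, and 77.5, 57.1, 74.0 and 49.6 in 5xFAD-Dp16. Wild-type 4 was again the highest and 5xFAD 3 the lowest. The difference of 5xFAD-Dp16 from 5xFAD was 0.83 (SE 0.31, 95% interval 0.17 to 1.49, edgeR adjusted p = 0.159), and 0.63 without the sex term. 5xFAD-Dp16 4 lay below 5xFAD 1 and 5xFAD 2, so these groups overlapped.

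Aqp4 (ENSMUSG00000024411.11) varied less than the channel and cotransporter. Its values were 98.8, 84.8, 106 and 122 CPM in wild-type mice, 128, 105, 138 and 92.0 in Dp16, 155, 163, 73.0 and 119 in 5xFAD, and 139, 129, 139 and 106 in 5xFAD-Dp16. The 5xFAD group held both the highest library and the lowest, its females (5xFAD 1 and 5xFAD 2) lying above its males (5xFAD 3 and 5xFAD 4). That order of the sexes within 5xFAD held for 6 of the 10 genes, Aqp4, Slc1a2, Kcnj10, Slc4a4, Aldh1l1 and Acsbg1, and the reverse for Aldoc. The share of all genes with such an order was not counted, so it is not read as a sex difference. The length trend, described below, was 0.23 and 0.08 in these females and -0.46 and -0.24 in these males. Its part in this order was not tested. The largest difference of Aqp4, 5xFAD-Dp16 from wild-type, was 0.41 (95% interval -0.04 to 0.87, edgeR adjusted p = 0.497).

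Among the metabolic enzymes, Aldoc had the most separate groups. Aldoc (ENSMUSG00000017390.15, chromosome 11, 78322968 to 78327781, 9 exons) stood at 2185, 2569, 2721 and 2609 CPM in 5xFAD and at 1881, 2071, 1992 and 1997 in 5xFAD-Dp16. Each 5xFAD-Dp16 library was below each 5xFAD library, a separation that 11.5% of all genes showed in this comparison. Wild-type held 2345, 2258, 2115 and 1688 CPM and Dp16 2476, 2008, 2315 and 1976, and both overlapped each of the other groups. Means were 2102 ± 292 in wild-type, 2194 ± 242 in Dp16, 2521 ± 233 in 5xFAD and 1985 ± 78.4 in 5xFAD-Dp16. The log2 difference of 5xFAD-Dp16 from 5xFAD was -0.39 (SE 0.13, 95% interval -0.67 to -0.12, unadjusted p = 0.00817, edgeR adjusted p = 0.155). That of 5xFAD from wild-type was 0.26 (SE 0.12, unadjusted p = 0.0459, edgeR adjusted p = 0.455), and the interaction was -0.46 (SE 0.18, edgeR adjusted p = 0.522).

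Aldh1l1 (ENSMUSG00000030088.15, chromosome 6, 90486427 to 90600203, 23 exons) had its lowest mean in 5xFAD. It stood at 51.1, 37.7, 44.0 and 59.0 CPM in wild-type and 37.9, 44.4, 20.2 and 34.0 in 5xFAD, and the groups overlapped. Dp16 held 54.2, 51.3, 66.5 and 38.3 CPM and 5xFAD-Dp16 57.5, 38.2, 43.3 and 37.0. The log2 difference of 5xFAD from wild-type was -0.50 (SE 0.23, 95% interval -0.98 to -0.02, unadjusted p = 0.0431, edgeR adjusted p = 0.449).

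Acsbg1 (ENSMUSG00000032281.11, chromosome 9, 54604877 to 54661870, 14 exons) ran with Aldh1l1. Its means were 169 ± 17.1 CPM in wild-type, 192 ± 47.3 in Dp16, 147 ± 27.7 in 5xFAD and 174 ± 26.5 in 5xFAD-Dp16, and its 16 libraries ran from 107 CPM in 5xFAD 3 to 241 in Dp16 3. The groups overlapped in each comparison, and the largest of its differences was 0.27 for 5xFAD-Dp16 against 5xFAD (95% interval -0.15 to 0.69, edgeR adjusted p = 0.399).

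S100b (ENSMUSG00000033208.7, chromosome 10, 76253853 to 76261159, 3 exons), the shortest of the 10 transcripts, was highest in 5xFAD 3, the library that was lowest for 7 of the other genes. It stood at 301, 389, 313 and 268 CPM in wild-type mice, 389, 331, 333 and 365 in Dp16, 370.3, 374, 403 and 327 in 5xFAD, and 272, 329, 315 and 313 in 5xFAD-Dp16. Each 5xFAD-Dp16 library was below each Dp16 library, by as little as 329 against 331 CPM, a separation that 5.44% of all genes showed in that comparison. The log2 difference was -0.15 (SE 0.13, 95% interval -0.43 to 0.12, edgeR adjusted p = 0.770). Dp16 was 1.11-fold the level of wild-type, with a 95% interval of 0.93- to 1.33-fold (edgeR adjusted p = 1.00).

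**Figure D2:**
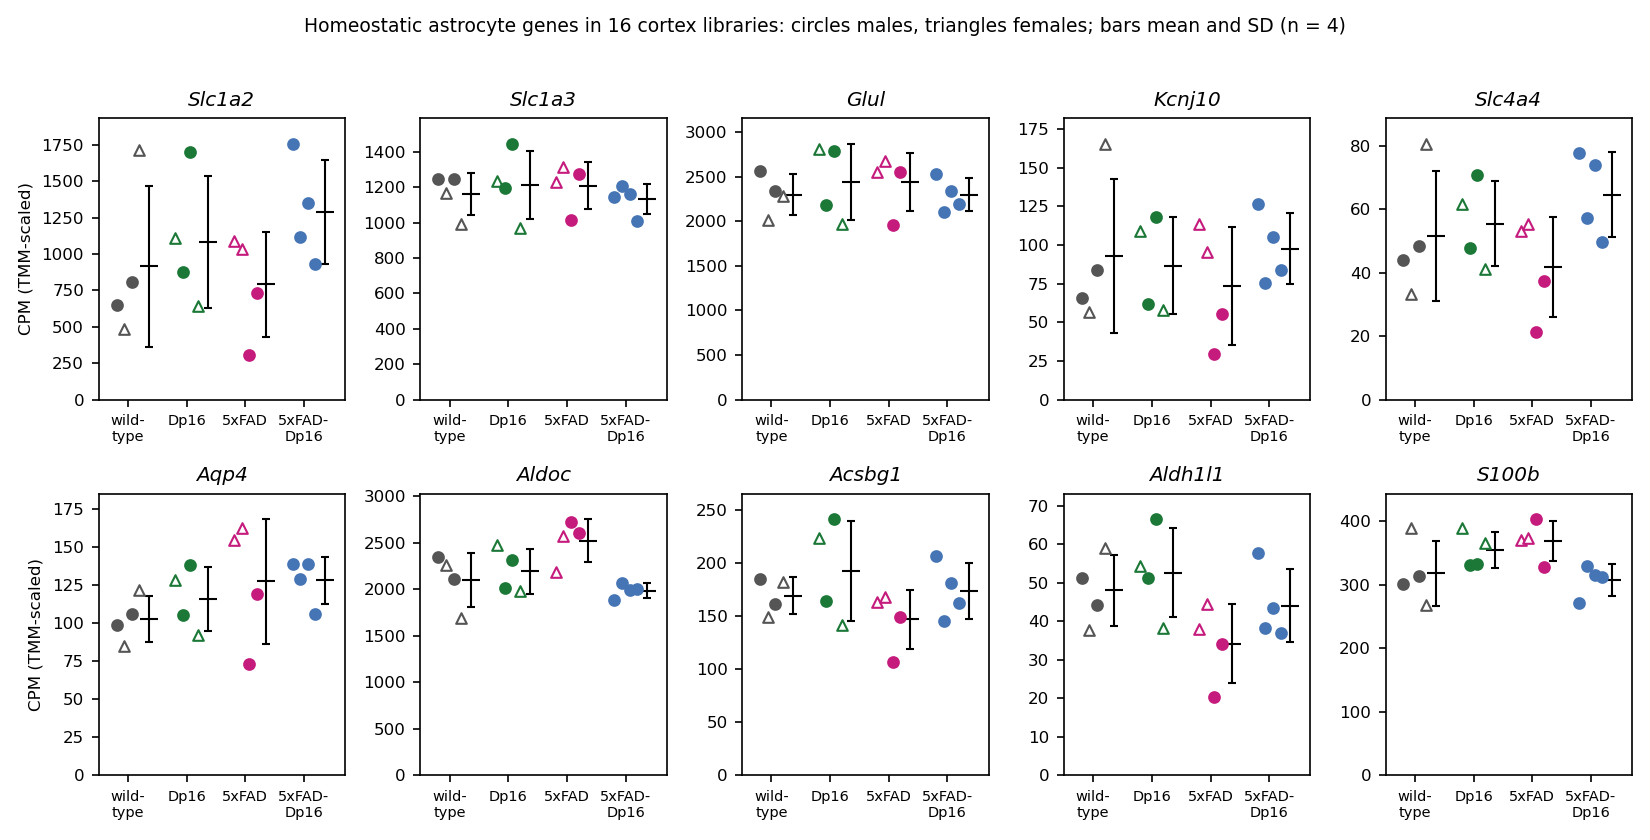
CPM (y axis, from 0) of the 10 genes in the 16 libraries by genotype (x axis), with circles for males, triangles for females, and bars for the mean and SD of 4 libraries. Slc1a2, Kcnj10 and Slc4a4 spread severalfold within a genotype, and the 5xFAD-Dp16 values of Aldoc (1881 to 2071) lie below those of 5xFAD (2185 to 2721).

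The comparison of 5xFAD-Dp16 with 5xFAD asks what the duplication adds to the amyloid transgenes. Here the calls among the 10 genes changed with the 5xFAD libraries used. Leaving out a library also leaves fewer 5xFAD libraries, and the part of each in any change of calls was not tested. The 5xFAD-Dp16 mice were males, and the 5xFAD males were 5xFAD 3 and 5xFAD 4. With male libraries alone, edgeR's quasi-likelihood test called 22.5% of 17567 genes, and 5 of the 10. Slc1a2 was higher by 1.32 (adjusted p = 0.0176), Kcnj10 by 1.22 (adjusted p = 0.0147), Slc4a4 by 1.15 (adjusted p = 0.00992) and Aldh1l1 by 0.71 (adjusted p = 0.0427), and Aldoc was lower, at -0.41 (adjusted p = 0.0224). In a fit of the 2 genotypes alone, with the sex term, 31.3% of 16014 genes and the same 5 of the 10 were called.

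Without 5xFAD 3 the male comparison called 0 of the 10 and 0% of 18838 genes. The differences of the same genes were then 0.83 for Slc1a2, 0.83 for Kcnj10, 0.81 for Slc4a4 and 0.38 for Aldh1l1, and Aldoc was the least altered, at -0.38 (adjusted p = 0.243). That fit has 1 library, 5xFAD 4, in the 5xFAD arm, and the male fit without 5xFAD 4 has 5xFAD 3 alone. In both, that arm is assumed to vary like the male libraries of the other genotypes. Without 5xFAD 4 instead, 25.3% of genes and 7 of the 10 were called, with Slc1a2 at 2.11 and Aldoc at -0.42. The 2-genotype fit likewise called 0 of the 10 without 5xFAD 3 and 8 of the 10 without 5xFAD 4, the latter among 37.3% of genes. DESeq2's call of Aldoc (adjusted p = 0.0475) was also lost without 5xFAD 3 (adjusted p = 0.544), while its estimate moved from -0.39 to -0.36. With no low-count filter, 7.6% of 29145 genes were called and 3 of the 10, Slc1a2 at 0.95, Kcnj10 at 0.82 and Slc4a4 at 0.85, and without 5xFAD 3 that fit called 0 of the 10 among 0.708% of genes.

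**Figure D3:**
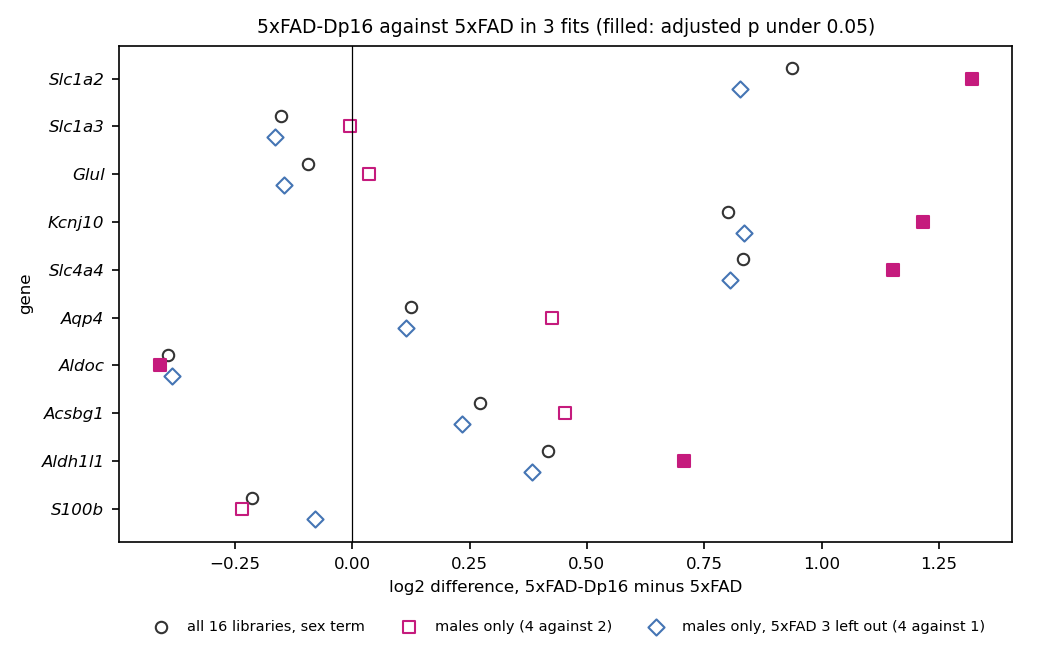
Log2 difference of 5xFAD-Dp16 from 5xFAD (x axis) for the 10 genes (y axis) in 3 edgeR fits, with filled symbols for an adjusted p under 0.05. Of the 10 genes, 5 are filled with males alone (squares), and 0 are filled with all 16 libraries (circles) or with males alone and 5xFAD 3 left out (diamonds).

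The 5xFAD 3 library was the lowest of 16 for 7 of the 10 genes (Slc1a2, Kcnj10, Slc4a4, Aqp4, Aldh1l1, Acsbg1 and Glul) and the highest for Aldoc and S100b. It also had the lowest length trend of the 16. The length trend of a library is Spearman's rho, across genes other than the 10, between the library's deviation from the mean log2 CPM and the length of the gene, so that a negative value means that long transcripts read low there. It was -0.46 in 5xFAD 3 and -0.24 in 5xFAD 4, and between 0.10 and 0.45 in the 4 5xFAD-Dp16 libraries. In wild-type it was 0.43 in library 4 and between -0.36 and -0.13 in the other 3. Summed markers were lowest in 5xFAD 3 for oligodendrocyte precursors (17.3 CPM for 4 genes) and endothelium (74.4 CPM for 6 genes). The other 15 libraries held 24.2 to 66.1 and 98.1 to 174 CPM. 5xFAD 3 was not lowest for microglia, at 675 CPM against 487 to 578 in wild-type, or for myelin, at 6100 against 6034 in 5xFAD 4. Its 8 neuronal markers summed to 10685 CPM, the highest of the 16. Snap25, with a mean of 5630 CPM, made up most of such sums. By gene, 2 of the 8 neuronal markers were higher in 5xFAD than in wild-type, with a median of -0.11.

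Within-genotype spread followed transcript length among the 10. The SD of log2 CPM within genotypes was 0.68 for Slc1a2 (exonic length 12092 bases), 0.64 for Kcnj10 (5407) and 0.48 for Slc4a4 (10691), against a median of 0.36 over all tested genes, whose median length was 3066. It was 0.36 for Aldh1l1 (4175), 0.33 for Aqp4 (5905), 0.27 for Acsbg1 (2880), 0.19 for Glul (3353), 0.17 for Slc1a3 (4404), and 0.15 for both Aldoc (2976) and S100b (1484). Each SD was also ranked among the 500 genes nearest in level. Slc1a2 and Kcnj10 varied more than 99.8% of these, Slc4a4 than 94.2%, Aldh1l1 than 81.4%, Aqp4 than 79.8% and Acsbg1 than 65%. The shares were 39.8% for Glul, 36.2% for Slc1a3, 33.4% for S100b and 31.4% for Aldoc. Spearman's rho between SD and length over the 10 genes was 0.81, given as a description of genes measured in the same libraries. Much of the length of Slc1a2 and Kcnj10 lies after the stop codon: 9250 of 11595 bases in the longest full-length coding transcript of Slc1a2 (Gencode M21) and 4025 of 5407 in Kcnj10. Slc1a3 is longer than Aldh1l1 and Acsbg1 but varied less than both.

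Across the 16 libraries, Slc1a2 followed the length trend with Pearson's r = 0.93 and Spearman's rho = 0.96 (permutation p = 1.0e-05 for each, the smallest that 100000 permutations give, and adjusted p = 3.3e-05 over the 10 genes). Without the 2 libraries with the farthest length trends, 5xFAD 3 and 5xFAD-Dp16 1, r was 0.92, and after genotype means were removed it was 0.95. Slc4a4 (r = 0.90, rho = 0.94) and Kcnj10 (r = 0.89, rho = 0.90) had the same permutation p, with r of 0.89 and 0.87 without those 2 libraries. Aqp4 gave r = 0.77 and rho = 0.81 (adjusted permutation p = 0.00158 and 8.2e-04), with r = 0.69 without them. After genotype means were removed, r was 0.94 for Slc4a4, 0.96 for Kcnj10 and 0.82 for Aqp4.

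Aldoc and S100b ran the other way. Their r was -0.59 and -0.60 and their rho -0.55 and -0.52 (adjusted permutation p of r = 0.021 for each, of rho = 0.0471 and 0.0505). Without the 2 libraries r was -0.42 and -0.40, and it was -0.56 for each with genotype means removed. For Acsbg1 (r = 0.61, rho = 0.61, adjusted permutation p of r = 0.0208 and of rho = 0.0275) these values were 0.41 and 0.74. For Aldh1l1 (r = 0.57, rho = 0.53, adjusted permutation p of r = 0.021 and of rho = 0.0505) they were 0.34 and 0.82. Leaving out the farthest libraries also narrows the range of length trends, so a lower r does not tell whether a relation rests on them. Glul (r = 0.42, rho = 0.39, adjusted permutation p of r = 0.12) and Slc1a3 (r = 0.08, rho = -0.03, adjusted permutation p of r = 0.768) did not pass. With genotype means removed their r was 0.60 and 0.23, with no test. A fit with the trend removed from each library gave 0 of 10 calls in each of the 6 comparisons, and its offsets do not tell a technical trend from a biological one. In that fit the difference of 5xFAD-Dp16 from 5xFAD was 0.55 for Slc1a2, 0.58 for Kcnj10 and 0.46 for Slc4a4, down from 0.94, 0.80 and 0.83, and -0.42 for Aldoc.

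**Figure D4:**
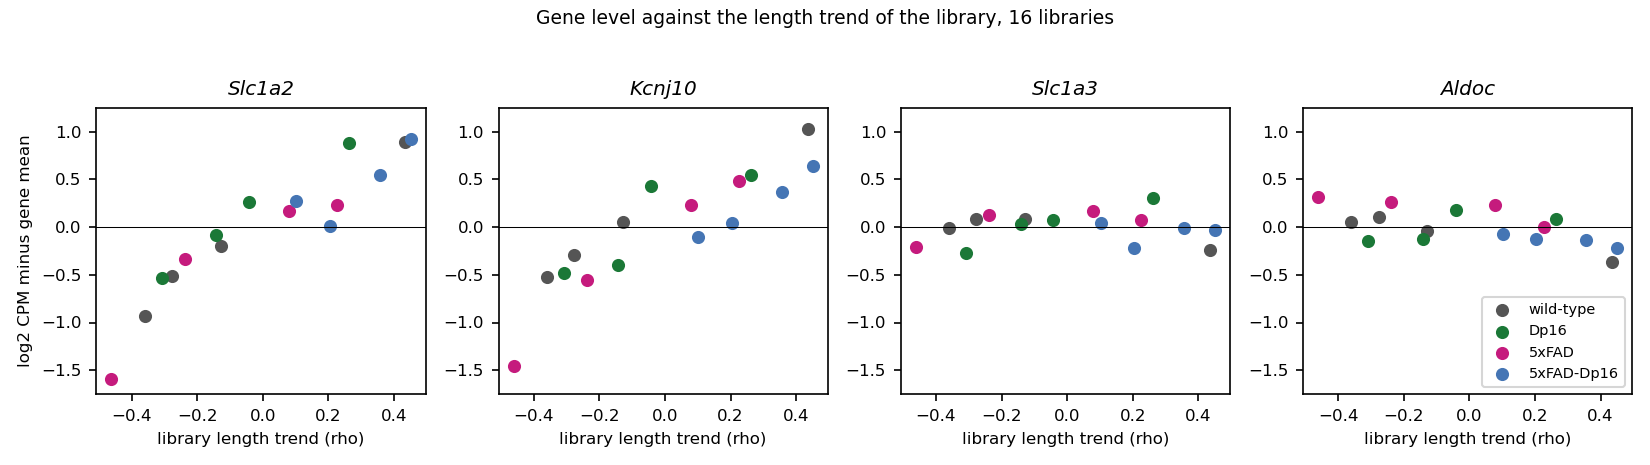
Log2 CPM of Slc1a2, Kcnj10, Slc1a3 and Aldoc minus the gene's mean (y axis) against the length trend of the library (x axis, Spearman's rho), with 1 point per library coloured by genotype. Slc1a2 and Kcnj10 climb along the axis (r = 0.93 and 0.89), Slc1a3 is flat (r = 0.08), and Aldoc slopes down (r = -0.59).

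With the length trend removed in males alone, 18.1% of genes and 4 of the 10 were called in 5xFAD-Dp16 against 5xFAD: Slc1a2 (0.83, adjusted p = 0.0245), Kcnj10 (0.90, adjusted p = 0.0196), Slc4a4 (0.65, adjusted p = 0.0168) and Aldoc (-0.45, adjusted p = 0.00919). Without 5xFAD 3 that fit too called 0 of the 10 and 0% of genes, with Slc1a2 at 0.47 and Aldoc at -0.43.

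Across libraries the 10 genes fell into a few sets by how they varied. Slc1a2 and Slc4a4 had r = 0.98 and rho = 0.98, Slc4a4 and Kcnj10 r = 0.95 and rho = 0.93, and Slc1a2 and Kcnj10 r = 0.93 and rho = 0.90 (permutation p = 1.0e-05 for each r, adjusted p = 1.1e-04 over 45 pairs). Without the 2 farthest libraries of the first gene of each pair, these r were 0.95, 0.89 and 0.88. Aldh1l1 and Acsbg1 had r = 0.91 and rho = 0.84 (adjusted permutation p = 1.1e-04 and 0.00112), with 0.80 without 2 libraries. The 2 glutamate transporters were not among the close pairs, with r = 0.28 and rho = 0.05 (adjusted permutation p = 0.351 and 0.877), while Slc1a3 and Glul had r = 0.73 and rho = 0.73 (adjusted permutation p = 0.0045 and 0.00929), with 0.71 without 2 libraries. Of the 45 pairs, 32 had r above 0 and 29 passed at an adjusted p of r under 0.05, 23 of these with r above 0. By rho 18 pairs passed, each with rho above 0. None of the 6 passing pairs with r below 0 passed by rho (adjusted permutation p from 0.0983 to 0.288), and their r was between -0.47 and -0.11 without 2 libraries.

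**Figure D5:**
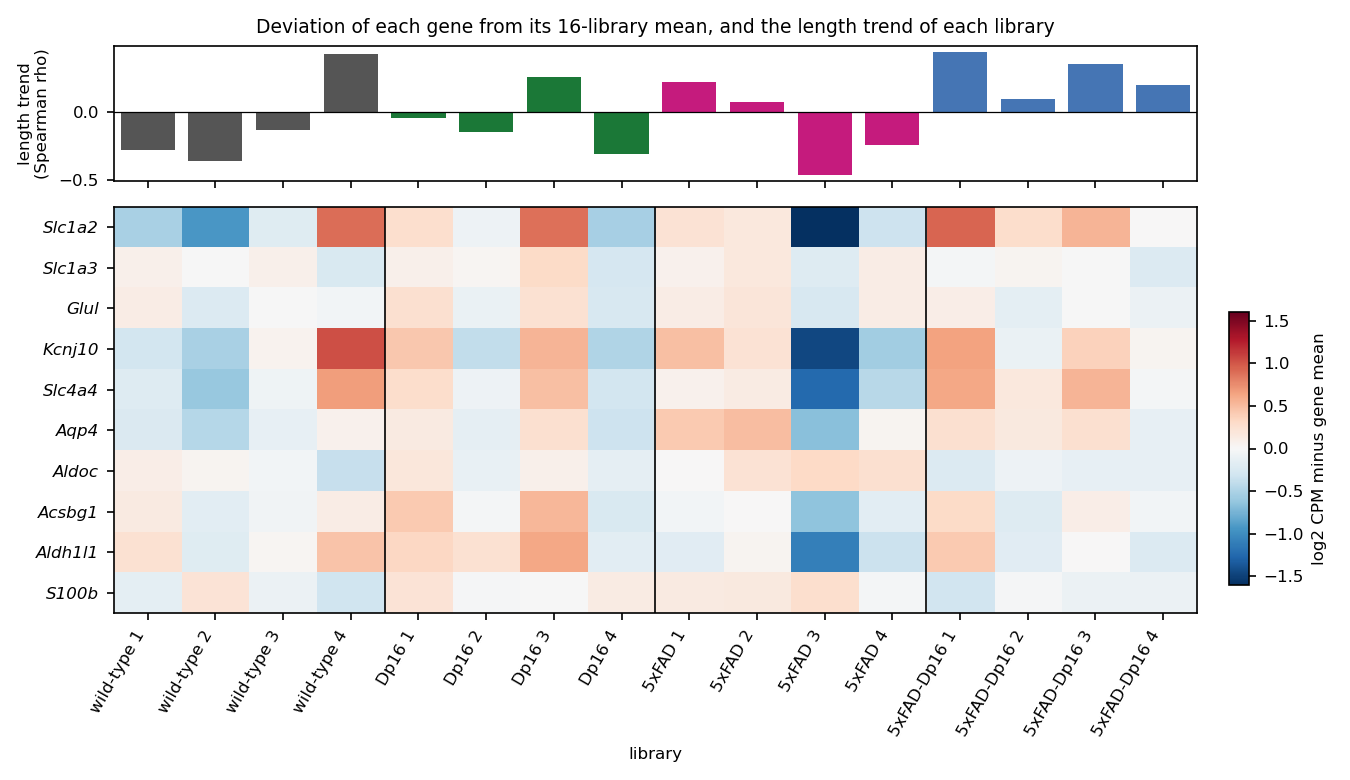
Log2 CPM minus the gene's mean (colour) for the 10 genes (rows) in 16 libraries (columns, by genotype), under bars of each library's length trend (Spearman's rho, y axis). The 5xFAD 3 column is lowest for Slc1a2, Kcnj10, Slc4a4 and 4 other genes, and it has the most negative bar, -0.46.

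The genes most like the mean of the 10 over the 16 libraries were Plpp3 (r = 0.98), Fads2 (0.97), Zcchc24 (0.97), Chst2 (0.97), Kif1c (0.97) and Pbxip1 (0.97), taken as the 6 highest of 14715 genes with a mean of at least 1 CPM. Plpp3 encodes a lipid phosphate phosphatase and Fads2 a fatty acid desaturase. Of those genes, 300, or 2.04%, had r above 0.9. These values describe libraries that share depth and length trend, and carry no test.

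The rest of the glutamate and GABA cycle was read from 21 listed genes of transmitter transport and glutamine metabolism, 21 of them tested. In 5xFAD-Dp16 against 5xFAD 0 rose and 0 fell past the threshold, 18 of 21 were higher, and their median difference was 0.39, beside 0.20 for the 10 genes and -0.002 for all genes. Of all genes, 49.8% were higher in the 16-library fit. Without 5xFAD 3 the median of the 10 genes was -0.011, and that of the 21 was not taken. In the same comparison, marker medians were 0.39 in neurons (7 of 8 higher), 0.62 in endothelium (6 of 6) and 0.71 in oligodendrocyte precursors (4 of 4). They were 0.13 in myelinating oligodendrocytes (5 of 8), -0.29 in microglia (3 of 8) and 1.03 in choroid plexus and ependyma (5 of 5). The choroid plexus and ependymal markers summed to 693 CPM in 5xFAD-Dp16 2 and to 14.4, 24.9 and 10.2 in the rest of that group. In 5xFAD they summed to 11.3 to 19.4 CPM. The part of these cells in these values was not tested. Among the 21 genes, the glutamine transporter Slc38a5 and the glycine transporter Slc6a9 had the smallest adjusted p. Slc38a5 stood at 0.458 ± 0.258 CPM in 5xFAD and 1.91 ± 0.670 in 5xFAD-Dp16 (log2 difference 2.47, edgeR adjusted p = 0.155). Slc6a9 stood at 11.8 ± 3.70 and 19.7 ± 6.20 CPM (1.06, adjusted p = 0.155). In 5xFAD against wild-type 4 of the 21 were higher, with a median of -0.20 and 0 calls.

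Potassium, water and ion handling, with the dystrophin anchor that holds Kcnj10 and Aqp4 at endfeet, was read from 31 genes, of which 29 were tested. None passed in either direction in the 6 comparisons, 24 of 29 were higher in 5xFAD-Dp16 than in 5xFAD, and the median was 0.45. The marker medians given above included 0.39 in neurons, 0.62 in endothelium and 0.71 in oligodendrocyte precursors. Myelinating oligodendrocytes were at 0.13 and microglia at -0.29.

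Of 25 genes of glycolysis, lactate and glycogen, 0 passed in either direction in the 6 comparisons. In 5xFAD-Dp16 against 5xFAD, 21 of 25 were higher, with a median of 0.20, in the direction opposite to Aldoc. Gapdh stood at 922 ± 74.6 CPM in 5xFAD and 1261 ± 132 in 5xFAD-Dp16 (0.45, edgeR adjusted p = 0.155), and lactate dehydrogenase B (Ldhb) at 1509 ± 329.8 and 1122 ± 167 (-0.51, adjusted p = 0.155). Gapdh can share reads with its many pseudogenes, so its count is uncertain. Of 28 genes of fatty acid, folate and amino acid metabolism, 27 were tested and 0 passed. The serine synthesis enzymes Psat1 (359 ± 56.2 and 258 ± 25.5 CPM, -0.52, adjusted p = 0.155) and Phgdh (125 ± 9.16 and 104 ± 5.08 CPM, -0.30, adjusted p = 0.180) had the smallest adjusted p, again in 5xFAD-Dp16 against 5xFAD.

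Among 30 other homeostatic astrocyte markers 0 passed in any comparison. In Dp16 against wild-type 21 of 30 were higher, with a median of 0.12 beside 0.13 for the 10 genes. In 5xFAD-Dp16 against 5xFAD 17 of 30 were higher, with a median of 0.02. The tight junction protein Cldn10 (109 ± 20.1 CPM in 5xFAD, 73.7 ± 10.6 in 5xFAD-Dp16, -0.63, edgeR adjusted p = 0.155) and the phospholipase Pla2g7 (303 ± 20.5 and 251 ± 9.46 CPM, -0.32, adjusted p = 0.155) had the smallest adjusted p, both below in 5xFAD-Dp16.

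The reactive marker Gfap stood apart from the homeostatic genes. It stood at 162 ± 7.81 CPM in wild-type, 197 ± 44.9 in Dp16, 596 ± 260 in 5xFAD and 365 ± 80.8 in 5xFAD-Dp16 (SD, n = 4). It rose by 1.84 in 5xFAD against wild-type (SE 0.26, edgeR adjusted p = 0.00283), a comparison in which the 10 genes ran from -0.50 to 0.29. With males alone the estimate was 1.14 (adjusted p = 0.0952), and with all sexes but without 5xFAD 3 it was 2.03 (adjusted p = 0.00142). Of 22 reactive astrocyte genes 20 were tested, and Gfap was the only one past the threshold. Srgn, a granule proteoglycan, had the next smallest adjusted p, for 5xFAD-Dp16 against 5xFAD (15.1 ± 0.497 and 9.40 ± 1.70 CPM, -0.70, adjusted p = 0.155).

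Of 9 other S100 genes, 1 was higher in 5xFAD-Dp16 than in 5xFAD and 0 passed, with a median of -0.62 beside -0.21 for S100b. That of S100b was 0.036 with the length trend removed and -0.11 without 5xFAD 3. The median of the 9 was not taken in those fits. S100a16 stood at 229 ± 43.5 CPM in 5xFAD and 147 ± 23.4 in 5xFAD-Dp16 (-0.67, edgeR adjusted p = 0.155) and S100a13 at 64.6 ± 10.3 and 44.3 ± 4.57 CPM (-0.61, adjusted p = 0.155). The 19 listed neighbours of S100b on chromosome 10, which also match human chromosome 21, had 17 tested and 0 passed, with a median of 0.06 in Dp16 against wild-type. The folate carrier Slc19a1 and the fucosyltransferase Pofut2 had the smallest adjusted p among them, with differences of 0.71 (adjusted p = 0.155) and 0.46 (adjusted p = 0.171) in 5xFAD-Dp16 against 5xFAD.

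Library totals ran from 12483286 to 20385010 counted reads, and the lowest count of any of the 10 genes was 307 reads, for Aldh1l1 in 5xFAD 3. The 8 microglial markers summed to 655 to 922 CPM in 5xFAD against 487 to 578 in wild-type, 483 to 593 in Dp16 and 517 to 597 in 5xFAD-Dp16, and the 8 myelin genes to 6034 to 7755 CPM in 5xFAD and 6289 to 6423 in 5xFAD-Dp16, against 7626 to 9056 in wild-type and 6948 to 9045 in Dp16. The 4 striatal genes summed to 387 to 787 CPM over the 16 libraries, and the cerebellar gene Gabra6 was at 0 in 14 of them. Choroid plexus and ependymal markers were at 693 CPM in 5xFAD-Dp16 2 and at 9.93 to 111 in the others. The part of these cell types in the values of the 10 genes was not tested.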

How the data were processed

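Polyadenylated RNA from the cortex of 16 mice was read as strand-specific libraries, per the labels' protocols. The authors deposited raw counts per gene and a table of RPKM, which are counts scaled to the gene length and the counted reads of the library. The RPKM values followed from the deposited counts within 0.1% for 100% of values above 0, and gave gene lengths. Per the submitters' processing notes, bcl2fastq, FastQC 0.11.5, HISAT2 2.1.0, SAMtools 1.5 and HTSeq 0.6.1 were used with build GRCm38. The role of each tool and the strand setting of the counting are not given in the sources used here. If strand was ignored, reads of an antisense gene would add to a gene's count.

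Genes were kept by filterByExpr (17019 of 55385) and fitted with edgeR 4.0.16 (R 4.3.3), with TMM factors, a mean per genotype, an additive sex term and robust quasi-likelihood tests, two-sided, adjusted by Benjamini-Hochberg across every gene tested (threshold 0.05). The common biological coefficient of variation was 0.266. CPM is the count scaled to the TMM-scaled library total, and log2 CPM used a prior count of 2. DESeq2 1.42.0, other filters, scalings and sample sets, and fits with each library's length trend removed by offsets were alternatives. The edgeR script was tested on simulated counts. Gene spans and exons came from Gencode M21 (GRCm38).

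The rule for the 10 genes uses names and no values, but it, the other lists and the tests were chosen with earlier results of these data known, so no list is independent evidence of its direction. Besides the 10 genes and Gfap, the text names from each list up to 4 genes past the threshold, or the 2 with the smallest adjusted p where fewer than 2 passed, and the 6 genes closest in pattern to the mean of the 10. Genes that the rule picks from the list of ion and water handling are not reported here. Correlations used two-sided permutation tests of 100000 draws.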

Additional observations from a re-analysis of the deposited data

Results flagged for a closer look

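Glul in the library 5xFAD 3 lay far below the other 3 libraries of its group, at 1965 CPM, with a gap to the nearest of them that was 0.848 of the group's whole range on the log2 CPM scale, above Dixon's 95% critical value for 4 samples. On the CPM scale the same ratio was 0.827, just below that value. The other 3 libraries held 2559, 2684 and 2559 CPM. This was the 1 such library among 40 groups of 4 (10 genes in 4 genotypes), and chance gives about 1 in 20 groups.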

How the results depend on the processing

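Precision was limited by 4 libraries a genotype and by the spread between them, with half-widths of the 95% intervals of pairwise log2 differences from 0.26 (S100b) to 0.95 (Slc1a2), and not by depth, since the lowest count of any of the 10 genes was 307. Of 660 log2 differences of the 10 genes under other settings, 616 kept their direction, 44 reversed and 35 passed the threshold, of which 33 were in 5xFAD-Dp16 against 5xFAD with 5xFAD 3 kept. With 1 library left out of the fit over all others, 39 of 560 reversed and 0 passed, the smallest adjusted p being 0.119. The largest difference reversed by another setting was 0.39 in the 16-library fit, and the largest reversed by leaving out 1 library was 0.62 (Slc1a2 in the interaction, without wild-type 4). The fits that left out 5xFAD 3 or 5xFAD 4 under another setting, and the fit of males only with the length trend removed, were chosen after seeing the data. The fit of only the groups compared was not run for the interaction, which needs all 4 groups. For the 10 genes, with 0 called in the 16-library fit, the count in 5xFAD-Dp16 against 5xFAD was 3 with no low-count filter (Slc1a2, Kcnj10 and Slc4a4), 1 with DESeq2, 5 with males only and with only the groups compared, 4 with males only and the length trend removed, 7 with males only without 5xFAD 4, and 8 with only the groups compared without 5xFAD 4. With 5xFAD 3 left out and 5xFAD 4 kept, it was 0 in the fits with no low-count filter, DESeq2, males only (with and without the length trend) and only the groups compared. With no low-count filter Slc1a2 also passed in 5xFAD-Dp16 against wild-type (count 1), where 1% of all genes passed. Kcnj10 passed in the interaction (count 1), where 1.19% of all genes passed. The cause of these changes was not tested.

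The counts over all genes were as follows, the cause not tested. Dp16 against wild-type gave 3 in the 16-library fit, 43 with no filter, 35 with DESeq2, 17 with the length trend removed, 0 with males only (also with the length trend removed) and with only the groups compared, and 1 without wild-type 2 and 5xFAD 3. 5xFAD against wild-type gave 30, and then 235 with no filter, 234 with DESeq2, 5 with males only, 14 with males only and the length trend removed, 7 with only the groups compared, and 18 without wild-type 2 and 5xFAD 3. 5xFAD-Dp16 against wild-type gave 8, and then 292 with no filter, 106 with DESeq2, 14 with no sex term, 2 with males only, 13 with the length trend removed, and 0 with only the groups compared. 5xFAD-Dp16 against Dp16 gave 3, and then 45 with no filter, 25 with DESeq2, 5 with only the groups compared and 5 without wild-type 2 and 5xFAD 3. 5xFAD-Dp16 against 5xFAD gave 0, and then 2215 with no filter, 781 with DESeq2, 16 with no sex term, 3956 with males only, 3184 with males only and the length trend removed, 4 with the length trend removed and 5020 with only the groups compared. Without 5xFAD 4 the last comparison gave 4789 with males only and 6099 with only the groups compared, and without 5xFAD 3 it gave 205 with no filter, 22 with DESeq2 and 0 in the other 3 such fits. The interaction gave 0, and then 346 with no filter and 21 with DESeq2. Leaving out 1 library at a time gave 0 to 2 in Dp16 against wild-type, 16 to 26 in 5xFAD against wild-type, 3 to 21 in 5xFAD-Dp16 against wild-type (21 without wild-type 4), 0 to 3 in 5xFAD-Dp16 against 5xFAD, and 0 to 1 in the interaction.

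The same replicate numbers recur in the genotypes but did not pair the samples: over 24 pairs of same-numbered libraries the correlation of their deviations ran from -0.36 to 0.32, with 5 pairs over 0.1, and 1 library correlated best with its own number. With the replicate number as a block, 0 of the 10 genes were called in any comparison, and the count over all genes was 0 in Dp16 against wild-type, 3 in 5xFAD-Dp16 against wild-type and 0 in 5xFAD-Dp16 against 5xFAD.

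None of the reversed log2 differences passed the threshold (smallest adjusted p 0.247). In Dp16 against wild-type they were Slc1a3 (-0.0049), Glul (-0.0067), Kcnj10 (0.11) and Aldoc (-0.048) with males only and the length trend removed, Kcnj10 (0.26) and Aldoc (-0.049) with males only, and Slc4a4 (-0.058) without wild-type 2 and 5xFAD 3. In 5xFAD against wild-type they were Aqp4 (-0.11), Slc1a3 (-0.14) and Glul (-0.14) with males only, and Slc1a3 (-0.038) and Glul (-0.071) with the length trend also removed. In 5xFAD-Dp16 against wild-type they were S100b with DESeq2 size factors (-0.0076), DESeq2 (-0.0074), no sex term (-0.049), males only (-0.0082) and only the groups compared (-0.0097), Glul (0.0091) with no filter, and Acsbg1 with males only (-0.0048), only the groups compared (-0.0071) and without wild-type 2 and 5xFAD 3 (-0.023). In 5xFAD-Dp16 against Dp16 they were Slc1a2 (-0.0023) with males only and (-0.0040) with only the groups compared, S100b (0.0076) with the length trend removed, and Aqp4 (-0.013), Slc1a2 (-0.15) and Slc4a4 (-0.024) with males only and the length trend removed.

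In 5xFAD-Dp16 against 5xFAD the reversals were Aqp4 with the length trend removed (-0.12), without wild-type 2 and 5xFAD 3 (-0.091), and without 5xFAD 3 in the fits with males only and the length trend removed (-0.13), DESeq2 (-0.15) and no filter (-0.14). S100b was at 0.12 with males only and the length trend removed, with and without 5xFAD 3, and at 0.036 with the length trend removed. Glul was at 0.035 with males only and 0.013 with only the groups compared, and at 0.26 and 0.21 in those fits without 5xFAD 4, where Slc1a3 was at 0.19 and 0.15. In the interaction they were Aqp4 (0.18) and Glul (0.017) with males only and Acsbg1 (-0.0078) without wild-type 2 and 5xFAD 3.

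Leaving out 1 library at a time gave these ranges where a direction changed. In Dp16 against wild-type they were -0.10 to 0.73 for Slc1a2, -0.025 to 0.15 for Slc1a3, -0.029 to 0.29 for Aldh1l1, -0.10 to 0.37 for Slc4a4, -0.0034 to 0.18 for Glul, -0.40 to 0.26 for Kcnj10 and -0.028 to 0.13 for Aldoc, with the low ends of Slc1a2, Slc1a3, Aldh1l1, Slc4a4 and Kcnj10 without Dp16 3. In 5xFAD against wild-type they were -0.49 to 0.27 for Slc1a2 and -0.0074 to 0.17 for Slc1a3. In 5xFAD-Dp16 against wild-type they were -0.066 to 0.074 for S100b, -0.054 to 0.072 for Glul and -0.028 to 0.15 for Acsbg1. In 5xFAD-Dp16 against Dp16 they were -0.17 to 0.0042 for Glul and -0.22 to 0.076 for Acsbg1, and in 5xFAD-Dp16 against 5xFAD -0.15 to 0.21 for Aqp4. In the interaction they were -0.32 to 0.15 for Aqp4, -0.0042 to 1.18 for Slc1a2 and -0.097 to 0.30 for Acsbg1.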
